A study of Rhodotorula toruloides with 18 samples.

Results

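On succinate, the cbr1 deletion strain of the yeast Rhodotorula toruloides was set against the wild type strain. The comparison used the 6 succinate libraries, 3 for each strain, of the 18 libraries in the series, and it covered all 8484 genes of the table. The deletion strain carried the genotype yku70::HygR cbr1::NatR, with resistance cassettes at both loci, and the wild type strain carried yku70::HygR. Both strains thus lacked an intact yku70, the gene for a subunit of the Ku complex that joins broken DNA ends, and were made in strain IFO0880. The number of independent transformants behind each strain is not given in the sources used here. Cells from an overnight culture in rich medium were washed and kept for 8 h at 28 degrees C in constant light in yeast nitrogen base of pH 6.2 with 1% succinate. The other 12 libraries, used below only beside the succinate values, came from the same strains kept without a carbon source or with 1% cellobiose. The series describes triplicates as biological, and the samples are called replicates here on that basis.

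Succinate is a dicarboxylic acid of the citrate cycle. A yeast that uses it as the sole carbon source must make its sugars by gluconeogenesis, the reverse of much of glycolysis. Carbon catabolite repression is the process by which fungi keep genes for the use of other carbon sources silent while a preferred source is present, and it acts largely through transcription factors. The series asks how a transcription factor links the use of carbon sources to this repression. The succinate cultures address the deletion on an organic acid, in place of the glucose disaccharide cellobiose.

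Values were TPM, abundances per unit of transcript length scaled to a total of 1000000 in each library, and differences are given on the log2(TPM + 1) scale as deletion minus wild type. Changes of lowly expressed genes come out too small on this scale. Calls required an adjusted p under 0.05 in limma (Benjamini-Hochberg) together with a log2 difference of 1 or more in size. Tests covered the 7938 genes that averaged 1 TPM or more across the 18 libraries. The files and the reference table pair none of the identifiers with a gene name, so the cbr1 transcript and the genes of carbon metabolism were not analysed here, and 4 genes are given by identifier only.

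The 6 succinate libraries did not separate cleanly by strain. Across tested genes, deletion replicate 3 had r = 0.983 with wild type replicate 1 and r = 0.987 with wild type replicate 2. With deletion replicates 1 and 2 it had r = 0.921 and r = 0.954. Deletion replicates 1 and 2 had r = 0.959 with each other. In the wild type, replicates 1 and 2 had r = 0.982 with each other, and replicate 3 had r = 0.913 and 0.937 with these. Deletion replicate 3 was thus closer to wild type replicates 1 and 2 than to either of the other deletion libraries. Deletion replicates 1 and 3 were about equally far from deletion replicate 2, and wild type replicate 3 was the least similar of its strain. These correlations are across genes, which are not independent replicates.

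**Figure D1:**
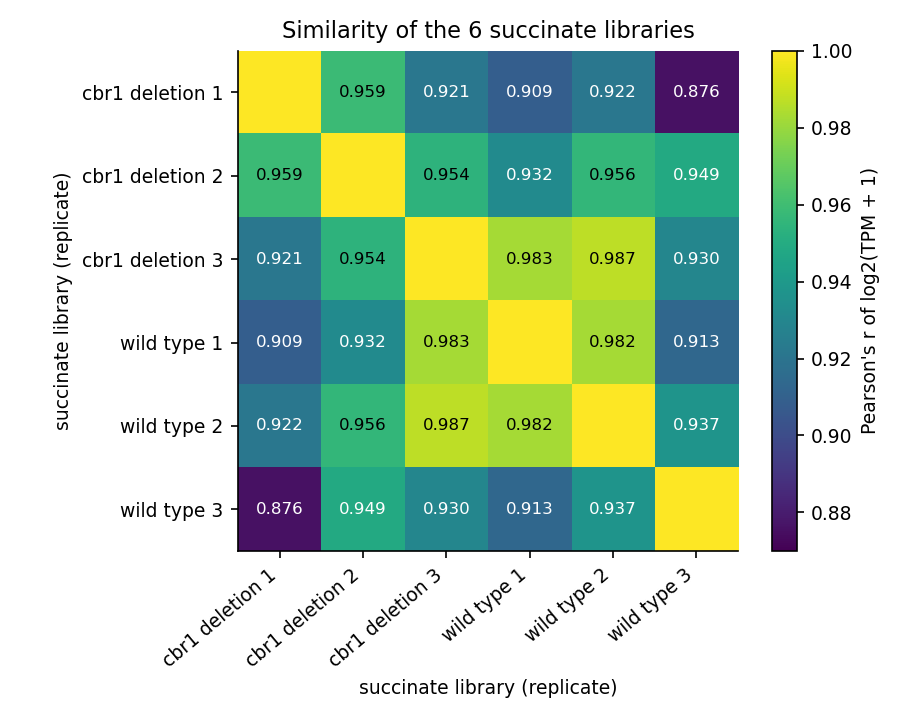
Pearson's r of log2(TPM + 1) across 7938 tested genes for each pair of the 6 succinate libraries, with deletion libraries before wild type libraries on each axis. The highest value off the diagonal, 0.987, joins deletion replicate 3 and wild type replicate 2.

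Deletion replicate 1 and wild type replicate 3 also differed in their likeness to the other media. Deletion replicate 1 had r = 0.950 with the mean of the deletion libraries on cellobiose, r = 0.956 with the wild type mean on cellobiose and r = 0.827 with the mean of the deletion libraries without carbon. Wild type replicate 3 had r = 0.835 with the same cellobiose mean, r = 0.872 with the wild type mean on cellobiose and r = 0.930 with the wild type mean without carbon. With the other strain's mean without carbon, deletion replicate 1 had r = 0.839 and wild type replicate 3 had 0.874. With the rest of their own succinate group they had 0.951 and 0.930. The wild type mean on cellobiose was also near wild type replicates 1 and 2 (0.951 and 0.948) and deletion replicate 3 (0.942). With the deletion mean on cellobiose, no other succinate library exceeded 0.915. Deletion replicate 3 had r = 0.985 with the wild type mean on succinate, above its r of 0.947 with the mean of the other deletion libraries on succinate. The numbers of reads are unknown.

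Abundant transcripts took less of the total in the deletion strain. The 100 most abundant genes of a library held 42.1%, 40.2% and 49.6% of the TPM in the deletion libraries, against 51.1%, 51.6% and 63.3% in the wild type libraries. The ranges of the strains did not overlap, with deletion replicate 3 and wild type replicate 1 closest to each other. The means were 44.0 ± 4.93% in the deletion strain and 55.3 ± 6.89% in the wild type (SD, n = 3 each; exact two-sided permutation test p = 0.1, the smallest that 3 against 3 libraries allows). The median TPM of a library was 29.1, 28.5 and 22.7 in the deletion libraries, against 21.1, 20.7 and 13.9 in the wild type libraries. In all 6 groups of the series, replicate 3 had the lowest median TPM of its group. Because TPM has a fixed total, a lower share of abundant transcripts goes with higher TPM for the rest, and it cannot be told from TPM alone which of the 2 moved.

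Most other genes had higher TPM in the deletion strain. The log2 difference was above 0 for 6770 of the 7938 tested genes (85.3%), and its median was 0.47. Its quartiles were 0.19 and 0.70. Median-ratio scaling, which sets the typical gene equal between libraries, brought the median to -0.00015. After it, 3964 genes were above 0 and 3973 below. A log2 difference near 0.47 in TPM is therefore that of the typical gene, and the directions given below are in TPM unless the scaling is named.

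The shift depended on the level of the gene. By mean TPM over the 6 libraries, the median log2 difference was 0.16 for the 207 genes under 1 TPM and 0.43 for the 1515 genes of 1 to 10 TPM. Among the 5093 genes of 10 to 100 TPM it was highest, at 0.52. Among the 968 genes of 100 to 1000 TPM it was 0.33. Among the 155 genes of 1000 TPM and over it was -0.23, which is further from the typical gene than from 0. These 155 genes held 48.1%, 47.6% and 56.6% of the TPM in the deletion libraries, against 57.5%, 58.9% and 68.1% in the wild type libraries. After median-ratio scaling the medians of the 5 bands, from low to high level, were -0.05, 0.04, 0.02, -0.19 and -0.75. Median-ratio scaling divides each library by 1 factor, so it moves all genes well above 1 TPM by nearly the same amount. The fall from 10 TPM upwards could thus hardly change, and the scaled values are no second support for it. The log2(TPM + 1) scale understates differences of genes at low levels, so the 2 lowest bands are not directly comparable with the others.

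With all 6 libraries 3 genes were called, of which 1 rose and 2 fell in the deletion strain. They were 0.0378% of the tested genes. Without a threshold on the adjusted p, 515 genes had a log2 difference of at least 1 (6.49%) and 74 of at most -1 (0.932%), and 2149 genes (27.1%) had an unadjusted limma p under 0.05. All deletion libraries lay above all wild type libraries for 2393 genes (30.1%) and below them for 42 (0.529%). After median-ratio scaling these were 630 (7.94%) and 323 (4.07%). Of the 155 genes of 1000 TPM and over, 9 were higher and 13 lower without overlap in TPM, whereas in the 10 to 100 TPM band 1682 were higher and 17 lower.

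RTO4_13588 fell in the deletion strain. It was at 2.03, 1.76 and 1.75 TPM in the deletion libraries, against 25.9, 30.2 and 17.4 TPM in the wild type libraries. All 3 deletion libraries were low and close together, deletion replicate 3 included, and the strains did not overlap. The means were 1.85 ± 0.162 TPM in the deletion strain and 24.5 ± 6.50 TPM in the wild type (SD, n = 3 each), and the log2 difference of -3.13 ± 0.32 (SE) passed with an adjusted p of 3.55e-05 in limma. Without deletion replicate 1 the difference was -3.18 (limma adjusted p = 3.06e-04), and without deletion replicate 3 it was -3.11 (limma adjusted p = 5.18e-04). With both left out it was -3.18 (limma adjusted p = 0.0211), and this was then the only gene called. Over all 3 media it lay between 1.75 and 2.99 TPM in the 9 deletion libraries, against 17.4 to 41.3 TPM in the 9 wild type libraries. The named genes were chosen for no overlap between the strains on succinate. That deletion replicate 3 lay below the wild type range was therefore fixed by the choice. How far below that range it lay was not fixed. The gene was also called without carbon (log2 difference -3.19, limma adjusted p = 2.58e-05) and on cellobiose (-3.39, limma adjusted p = 2.01e-06). Neither of these comparisons holds a succinate library. Across all genes deletion replicate 3 was most like the wild type, and which strain it was like was not tested with this gene.

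RTO4_13825 also fell. It was at 1.68, 2.15 and 1.60 TPM in the deletion libraries, against 52.0, 53.4 and 9.07 TPM in the wild type libraries. Wild type replicate 3 was far below the other wild type libraries but still above every deletion library. The log2 difference was -3.46 ± 0.48 (SE, n = 3 each; limma adjusted p = 0.00199). It was -3.43 without deletion replicate 1 (limma adjusted p = 0.0153) and -3.40 without deletion replicate 3 (limma adjusted p = 0.00219). With both left out it was -3.29 and no longer called (limma adjusted p = 0.145). In the other media the deletion libraries were also below all wild type libraries of the same medium. On cellobiose this gene was at 4.06, 4.14 and 3.90 TPM in the deletion libraries, against 44.0, 59.5 and 45.7 TPM in the wild type libraries (log2 difference -3.32 ± 0.48, SE; limma adjusted p = 6.08e-05). Without carbon it was at 6.30, 5.96 and 3.59 TPM in the deletion libraries, against 23.0, 20.3 and 7.51 TPM in the wild type libraries, a log2 difference of -1.41 ± 0.48 (SE) that was not called (limma adjusted p = 0.503).

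RTO4_9846 rose in the deletion strain. It was at 31.6, 38.9 and 19.2 TPM in the deletion libraries, against 5.21, 1.13 and 2.63 TPM in the wild type libraries. Deletion replicate 3 was the lowest of the deletion libraries and lay above every wild type library. The log2 difference was 3.03 ± 0.53 (SE, n = 3 each; limma adjusted p = 0.0312). It was 3.31 without deletion replicate 3 (limma adjusted p = 0.0037). The call was lost without deletion replicate 1, at 2.97 (limma adjusted p = 0.199), and with deletion replicates 1 and 3 both left out, at 3.46 (limma adjusted p = 0.145). It was lost as well without deletion replicate 2 (limma adjusted p = 0.161), without wild type replicate 2 (limma adjusted p = 0.156) and without wild type replicate 3 (limma adjusted p = 0.107). It was also lost after median-ratio scaling, at 2.65 (limma adjusted p = 0.0925).

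RTO4_9847, whose identifier follows directly on that of RTO4_9846, was at 122, 159 and 82.9 TPM in the deletion libraries, against 20.5, 4.97 and 9.15 TPM in the wild type libraries. The strains did not overlap. Its log2 difference of 3.43 ± 0.64 (SE, n = 3 each) missed the threshold with all 6 libraries (limma adjusted p = 0.0531). Without deletion replicate 3 it was 3.68 and called (limma adjusted p = 0.00567), and without deletion replicate 1 it was 3.41 and not called (limma adjusted p = 0.26). With deletion replicates 1 and 3 both left out it was 3.87. The gene was also called without wild type replicate 1 (limma adjusted p = 0.0234). It was not called without deletion replicate 2 (limma adjusted p = 0.202), wild type replicate 2 (limma adjusted p = 0.156) or wild type replicate 3 (limma adjusted p = 0.213). RTO4_9846 and RTO4_9847 had the same order of means over the 3 media in each strain. Without carbon, where both were highest, RTO4_9846 was at 159, 146 and 102 TPM in the deletion libraries, against 50.2, 16.3 and 14.3 TPM in the wild type libraries. RTO4_9847 was then at 531, 499 and 305 TPM in the deletion libraries, against 169, 47.6 and 41.1 TPM in the wild type libraries. In both genes every deletion library was above every wild type library of the same medium in all 3 media.

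**Figure D2:**
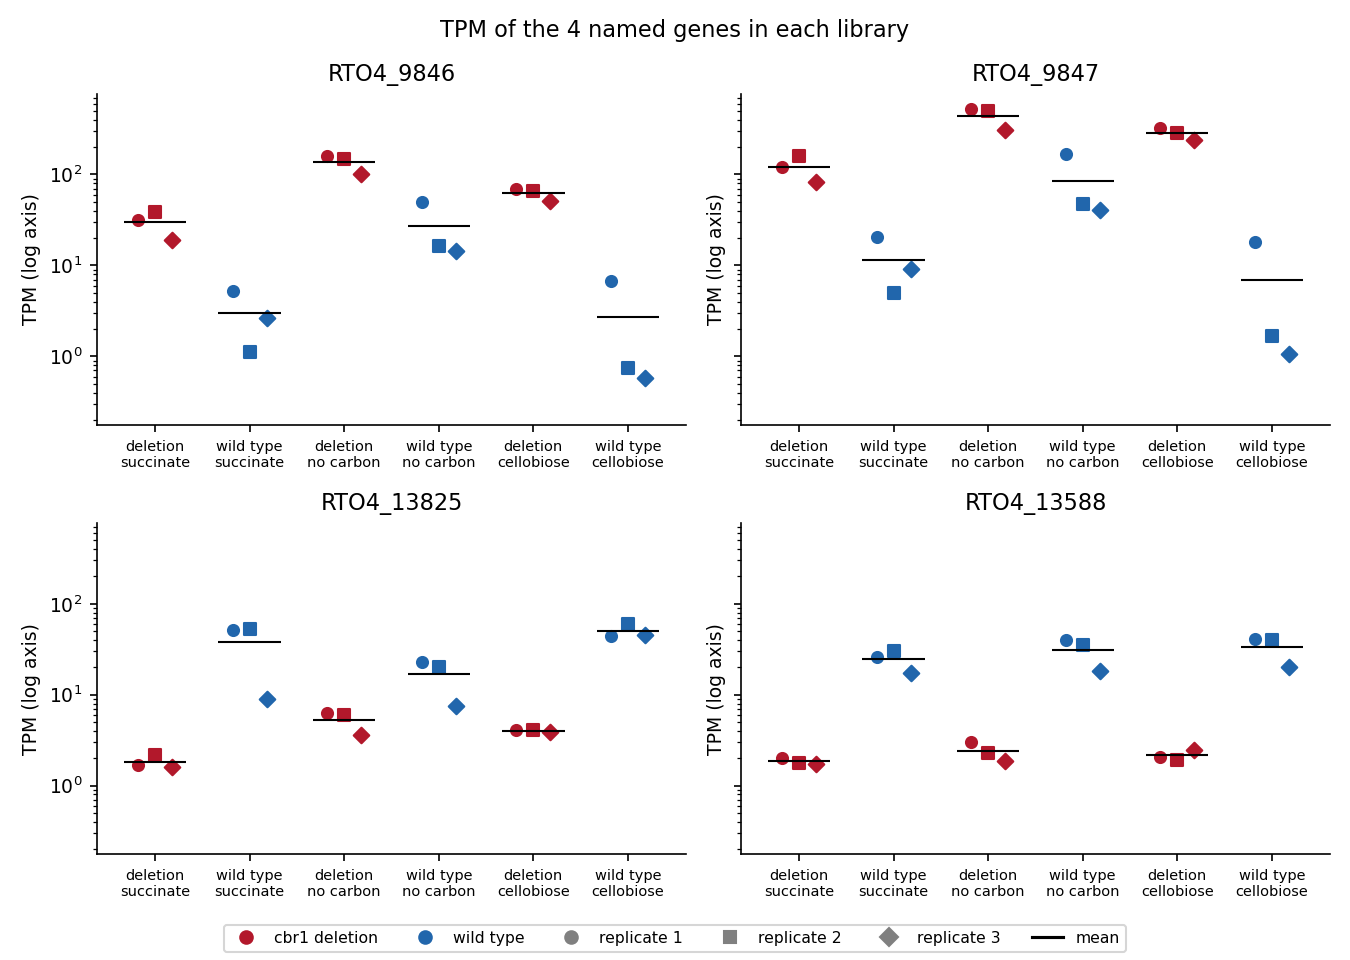
TPM on a log axis of the 4 named genes in each library, by strain and medium, with a mark for each replicate and a line at the mean of 3. RTO4_13588 lies between 1.75 and 2.99 TPM in all 9 deletion libraries and between 17.4 and 41.3 TPM in all 9 wild type libraries.

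Whether the genotype effect on these 4 genes differed between media was tested by interaction. The log2 difference on cellobiose was 4.49 ± 0.53 (SE) for RTO4_9846 and 5.90 ± 0.64 (SE) for RTO4_9847. The effect on succinate minus that on cellobiose was -1.46 for RTO4_9846 (limma adjusted p = 0.213) and -2.47 for RTO4_9847 (limma adjusted p = 0.0915), neither past the threshold. For RTO4_13588 and RTO4_13825 this difference was 0.26 (limma adjusted p = 0.76) and -0.14 (limma adjusted p = 0.921). The effect on succinate minus that without carbon was -2.05 for RTO4_13825 (limma adjusted p = 0.415). It was 0.54 for RTO4_9846, 0.81 for RTO4_9847 and 0.06 for RTO4_13588 (limma adjusted p = 0.999 each). A p that misses the threshold does not show that the effects were equal.

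Among single succinate libraries left out, the number of genes called changed by far the most without deletion replicate 3. Without it, limma called 1093 genes (13.8% of those tested), with 1041 that rose (13.1%) and 52 that fell (0.655%) in the deletion strain. The 3 genes called with all 6 libraries were among them. Other counts changed less: 3033 genes had an unadjusted limma p under 0.05, against 2149 with all 6 libraries. With all 6, 2517 genes already had a limma adjusted p under 0.2. With deletion replicate 3 kept, a replicate block over 18 libraries called 453 genes, 429 of them higher. Without deletion replicate 1, limma called 2 genes (0.0252%), RTO4_13588 and RTO4_13825, both lower, and 587 genes had an unadjusted p under 0.05. Without deletion replicate 2 there were 4 calls (0.0504%), all lower. With deletion replicates 1 and 3 both left out, the lone deletion library was assumed to vary like the other groups, and 1 gene was called (0.0126%). Leaving out wild type libraries 1, 2 and 3 in turn gave 4, 2 and 5 calls.

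**Figure D3:**
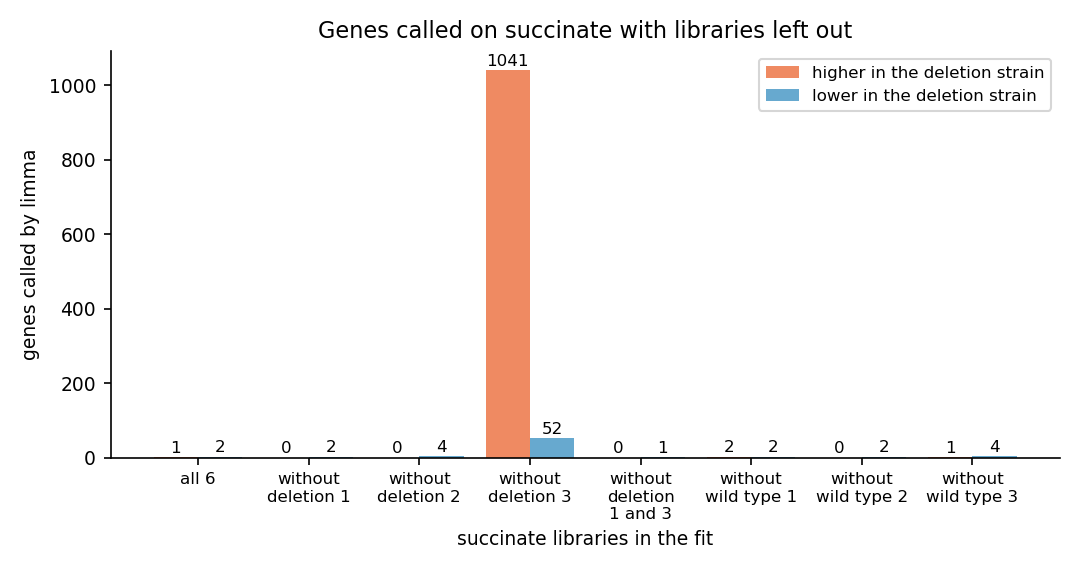
Number of genes called by limma higher or lower in the deletion strain on succinate, with all 6 succinate libraries and with the named libraries left out. The bars reach 1041 higher and 52 lower without deletion replicate 3 and are at 0 to 4 in every other fit shown.

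The large count without deletion replicate 3 was sensitive to the wild type libraries and to the scaling. Leaving out wild type replicate 3 as well gave 726 calls, of which 585 were higher and 141 lower. With wild type replicate 2 left out in its place there were 911, and with wild type replicate 1 there were 496. A fit of the 5 remaining succinate libraries alone called 213, of which 208 were higher. After median-ratio scaling 346 genes were called (4.36%), 152 higher and 194 lower, so the share of higher calls was 43.9% in place of 95.2%. All 152 and 44 of the 194 were also called in TPM in the same direction. The excess of higher calls without deletion replicate 3 was seen in TPM and not in the scaled values.

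**Figure D4:**
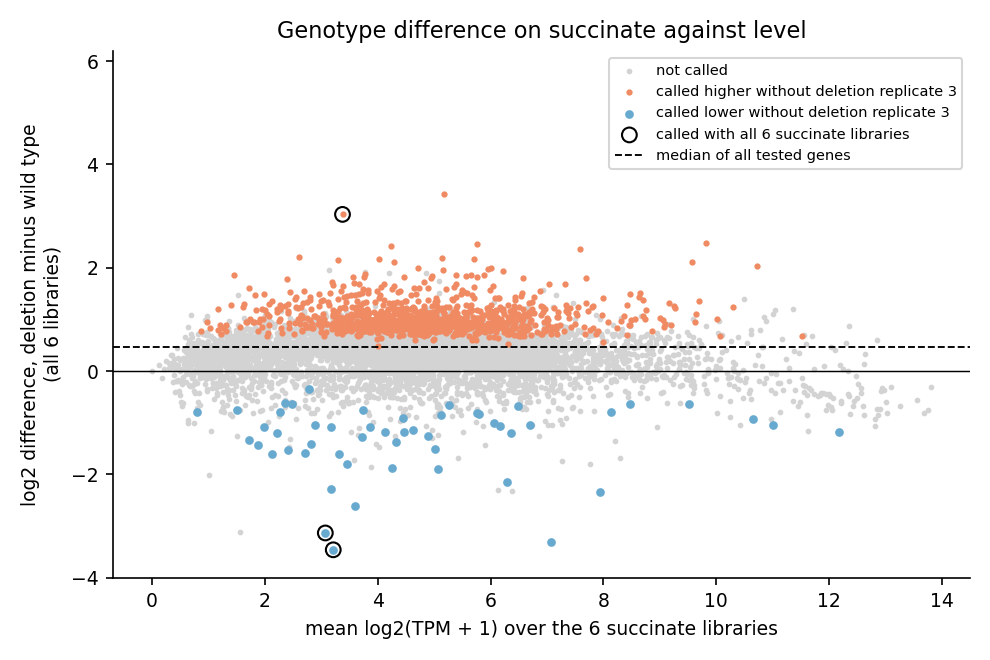
Log2 difference of each tested gene on succinate, deletion minus wild type over all 6 libraries, against its mean log2(TPM + 1). The dashed line marks the median of 0.47, rings mark the 3 genes called with all 6 libraries, and colours mark the 1041 genes called higher and the 52 called lower without deletion replicate 3.

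Deletion replicate 3 took no part in choosing the 1093 genes, so its own values for them could be read. The wild type libraries were used in the choice and again here. Among the 1041 genes called higher, the median distance from the wild type mean was 1.42 in deletion replicate 1, 1.16 in deletion replicate 2 and 0.28 in deletion replicate 3, on the log2 scale. Over all tested genes the medians were 0.60, 0.56 and 0.27 for the same libraries. Deletion replicate 3 was thus about as far above the wild type for the 1041 genes as for the typical gene. It lay above all wild type libraries for 587 of the 1041 (56.4%), within their range for 414 (39.8%) and below it for 40 (3.84%). For all tested genes, these shares were 41.1%, 54.6% and 4.30%. Among the 52 genes called lower, the medians were -2.14 in deletion replicate 1, -0.99 in deletion replicate 2 and -0.19 in deletion replicate 3. For these, deletion replicate 3 lay below all wild type libraries for 15 genes (28.8%), within their range for 30 (57.7%) and above it for 7 (13.5%). RTO4_13588 and RTO4_13825 were among the 15, as their choice for no overlap required.

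**Figure D5:**
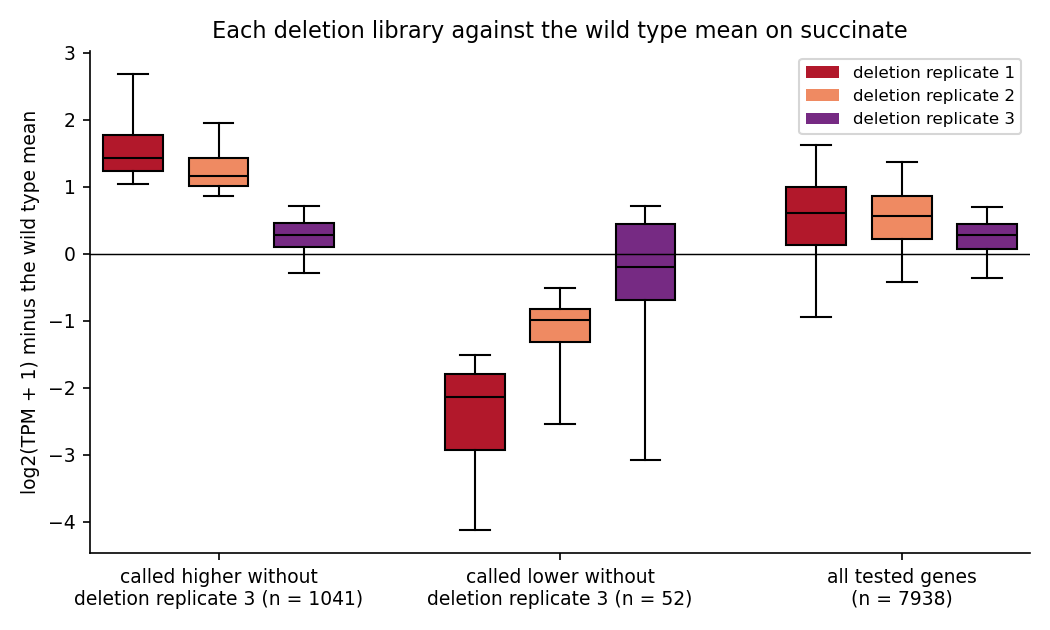
Distance of each deletion library from the wild type mean on succinate, in log2(TPM + 1), for the genes called higher (n = 1041) or lower (n = 52) without deletion replicate 3 and for all 7938 tested genes. Boxes span the quartiles with the median as a line, and whiskers run from the 5th to the 95th percentile; deletion replicate 3 is at a median of 0.28 for the genes called higher and 0.27 for all tested genes.

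Taken singly, the deletion libraries differed in how far they were from the wild type. Deletion replicate 1 had 1921 genes at least 1 above the wild type mean on the log2 scale and 351 at least 1 below. In deletion replicate 2 these were 1282 and 59 genes, and in deletion replicate 3 they were 78 and 61. Deletion replicate 3 was within the range of the wild type libraries for 54.6% of tested genes, against 27.8% for deletion replicate 1 and 33.6% for deletion replicate 2. Wild type replicate 3 was in turn the wild type library furthest from the deletion strain, and 6000 of its 7938 genes lay below all deletion libraries. The spread between replicates, as the median SD over genes on the log2 scale, was 0.339 in the deletion strain and 0.401 in the wild type. Without replicate 3 it was 0.184 in the deletion strain, and without wild type replicate 3 it was 0.170 in the wild type. Without replicates 1 and 2 in turn it was 0.298 and 0.386 in the deletion strain, and 0.433 and 0.459 in the wild type. A median SD of 2 libraries tends to be lower than that of 3. The root of the mean variance went from 0.514 to 0.422 in the deletion strain without replicate 3, and from 0.547 to 0.281 in the wild type.

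The genes called without deletion replicate 3 were then looked up in the genotype comparison on cellobiose, which shares no library with that on succinate. Both comparisons took the spread of each gene from the same fit, so their calls were not independent. Of the 1041 genes called higher on succinate, 471 (45.2%) were also called higher on cellobiose in the same fit, and these were 29.5% of the 1594 genes called higher there. The backgrounds were 20.1% of all tested genes called higher on cellobiose and 13.1% called higher on succinate. Of the 52 genes called lower, 27 (51.9%) were called lower on cellobiose, against a background of 9.3% of all tested genes. These 27 were 3.66% of the 738 called lower there, against 0.655% of all tested genes called lower on succinate. After median-ratio scaling, 96 of the 152 higher genes (63.2%) were called higher on cellobiose, against 14.7% of all tested genes. Of the 194 lower genes, 140 (72.2%) were called lower there, against 13.5% of all tested genes. These were 8.21% of the 1170 genes called higher and 13.1% of the 1072 called lower on cellobiose. For comparison, the 152 and 194 genes were out of all 7938 tested genes. Genes of opposite direction numbered 20 in TPM and 4 after scaling. Deletion replicate 1, the library furthest from the wild type for these genes, was close as a whole to the cellobiose libraries of both strains (r of 0.950 and 0.956 with their means), and the part of this in the overlap was not tested.

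Without carbon, limma called 6 genes between the strains (0.0756%). None of the 1041 genes was among them. Of the 52, 3 were, all among the 5 called lower there (0.063%). The log2 difference without carbon was above 0 for 86.5% of the 1041 genes and for 74.3% of all tested genes, with medians of 0.46 and 0.27.

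The test of whether the genotype effect itself differed between media gave unequal answers. Between succinate and no carbon, limma's interaction called 0 genes with all 6 succinate libraries (0%) and 0 without deletion replicate 3. At an unadjusted p under 0.05 there were 459 genes (5.78%) with all 6 and 868 without deletion replicate 3. With array weights it called 1068, a count that rests on a weight estimate that did not converge and gave single libraries weights from 0.0415 to 113. Between succinate and cellobiose, 623 genes were called (7.85%), of which 420 (5.29%) had a more positive effect on succinate and 203 (2.56%) a more negative one. Median-ratio scaling gave 488 and 659, so the majority changed sides. Without deletion replicate 3 the count was 568 (7.16%), and without deletion replicate 1 it was 484. Leaving out wild type replicate 3 reduced it most among single succinate libraries, to 276, and with deletion replicates 1 and 3 both left out it was 84. Of the cellobiose libraries, leaving out deletion replicates 1, 2 and 3 gave 166, 348 and 374, and leaving out wild type replicates 1, 2 and 3 gave 328, 293 and 591. For succinate against no carbon, the 0 became 3 without wild type replicate 3 on succinate and 7 without wild type replicate 1 without carbon.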

How the data were processed

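The deposited table holds TPM made by the authors, 1 column for each library; Salmon 1.10.0 is named per the submitters' processing notes. Not given in the sources used here were the genome build, annotation and gene lengths. Read numbers cannot be had from TPM, so depth is unknown. All 18 columns were matched to samples by library name. Of the identifiers, 0 matched the 8171 genes of the RefSeq table for strain NP11, so the planned gene lists were not used.

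Values were transformed to log2(TPM + 1), and the 7938 genes averaging 1 TPM or more were tested; 546 were not. limma 3.58.1 in R 4.3.3 was fitted with 1 mean for each of 6 groups, a trended prior and 1 shared spread over 18 libraries, and p-values were adjusted within each comparison. The model was tested on simulated data. The alternatives were other pseudocounts, filters, scalings, call rules, weights, fits of the succinate libraries alone, a replicate block and libraries left out. The genes named were the first 2 higher and first 2 lower on succinate, called genes first (by size) and then by p, with no overlap, a log2 difference of at least 1 in size and an average of 10 TPM or more in either strain. The comparison, genes and alternatives were chosen with earlier results of these data known. Combinations with deletion replicate 3 left out and a second change, except those with deletion replicate 1 or wild type replicate 2, were chosen after seeing the data.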

Additional observations from a re-analysis of the deposited data

Results flagged for a closer look

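The genotype effect differed between succinate and cellobiose for 623 genes by limma's interaction test. It is given here because effects of the same contrast differed between media. In TPM 420 of these genes had the more positive effect on succinate and 203 on cellobiose, and median-ratio scaling gave 488 and 659, with the majority on the other side. The count was 4 with limma's treat, which tests whether a change exceeds 1 on the log2 scale. It was 166 without deletion replicate 1 on cellobiose, 276 without wild type replicate 3 on succinate and 568 without deletion replicate 3 on succinate.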

How the results depend on the processing

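Depth was unknown. With all 6 libraries 3 genes were called. The count was 5 with a pseudocount of 5 TPM, 6 with a mean of at least 10 TPM, 6 with median-ratio scaling (all lower), 5 in the fit of 6 libraries alone, 1 with the treat test and 1118 with array weights, whose estimation did not converge, here and for both comparisons of media. It was 1 without deletion replicates 1 and 3, and 911 without deletion replicate 3 and wild type replicate 2. Leaving out single libraries gave 2 to 1093. With alternatives chosen after seeing the data, deletion replicate 3 left out gave 346 with median-ratio scaling, 319 with quantile normalization, 213 in the succinate libraries alone, 726 with wild type replicate 3 also left out and 496 with wild type replicate 1. The deviations of same-numbered succinate libraries of the strains had r of 0.0839, -0.345 and -0.321, so the numbers were not taken to pair them. Replicate 3 nevertheless had the lowest median TPM in 6 of 6 groups. Between the strains, same-numbered deviations had r of 0.606, 0.236 and 0.686 without carbon and -0.0573, -0.0641 and -0.0566 on cellobiose. Over all pairs of groups, r was above 0 in 9, 12 and 9 of 15 for numbers 1, 2 and 3. The medians were 0.13, 0.094 and 0.17. For different numbers r was above 0 in 42 of 90, with a median of -0.024. An effect shared by number entered only the replicate block and was itself not tested. The replicate block called 453 genes over 18 libraries and 0 in the 6 succinate libraries, where limma gave 2249 genes an unadjusted p under 0.05.

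The median log2 difference of 0.47 became -0.00015 with median-ratio scaling, 0.0352 with quantile normalization and 0.65 without deletion replicate 3 and wild type replicate 2. With single libraries left out it ran from 0.32 to 0.58. For succinate against cellobiose, the 623 became 1147 with median-ratio scaling, 1862 with array weights, 4 with the treat test, 1223 with the replicate block over 18 libraries and 84 without deletion replicates 1 and 3. Single libraries left out gave 166 to 895, cellobiose libraries included (chosen after seeing the data). For succinate against no carbon, the 0 became 1 with a pseudocount of 5 TPM, 1068 with array weights and 1 without deletion replicate 3 and wild type replicate 2. Single libraries left out gave 0 to 7, those without carbon included (also chosen then), and the replicate block gave 0 with 725 genes at an unadjusted p under 0.05. Genes without overlap numbered 2435, and 953 after median-ratio scaling. Leaving out a library can only add to them, up to 4554 without deletion replicate 3. The cause of the other changes was not tested.

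RTO4_13588 was called under 19 of 20 alternatives, RTO4_13825 under 17, RTO4_9846 under 9 and RTO4_9847 under 8, and none of these changed direction. The first 3 lost their calls under the replicate block in 6 libraries (limma adjusted p = 0.165). Over the alternatives, the limma adjusted p of RTO4_13588 ran from 3.07e-15 to 0.165. The lowest came from the fit with array weights, whose estimation did not converge and which called each of these genes. The next lowest was 1.24e-07, with quantile normalization.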

Other observations

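Of the 10 genes with the lowest limma p on succinate, 4 had an identifier consecutive with another of the 10, in pairs. One such pair was RTO4_9846 and RTO4_9847, both higher in the deletion strain, and the members of the other pair were both lower. Of the 1041 genes called higher without deletion replicate 3, 341 (32.8%) had a gene with a consecutive identifier that was also called higher, against 13.1% of all tested genes called higher. Of the 52 called lower, 9 (17.3%) had one called lower, against 0.655%. A gene can have a consecutive identifier on either side, so these shares exceed the background also for genes in random order. No annotation of strain IFO0880 was used here, so whether consecutive identifiers lie side by side in the genome was not tested.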
